A study of Homo sapiens with 6 samples.

Results

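Aminoacyl-tRNA synthetases are the enzymes that join each amino acid to its transfer RNA, and 38 genes of this system were followed through the RNA of edited and unedited HEK293 cells. The members were taken by name: 19 cytosolic enzymes (symbols ending in 1, with FARSA and FARSB, the paired subunits of the phenylalanine enzyme), 16 mitochondrial enzymes (symbols ending in 2) and 3 non-enzyme scaffold proteins, AIMP1, AIMP2 and EEF1E1. All 38 were found among the 61806 genes of the deposited table. The aspartate enzymes are outside this set and are treated as related genes.

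HEK293 is an established human line from embryonic kidney, transformed with fragments of adenovirus DNA. The 6 poly(A) RNA libraries were 3 from cells into which the DNA variant rs16851030 had been placed by CRISPR homology-directed repair (genotype rs16851030-mutant) and 3 from unedited HEK293 cells (genotype WT). All were grown in the same serum-containing medium. Replicates are labelled as biological. No clonal origin is stated for the edited cells, so p-values measure the spread between these libraries. The edit lies outside the coding part of its target gene ADORA1, so the level of that gene does not check the labels. Assigned counts were 16013460 to 20349609 per library. Of 7 markers of mature kidney cells, 0 reached the expression minimum, and their group means were at most 0.19 FPKM. Of 10 markers of HEK293 and the embryonic kidney lineage, 8 were tested, of which 2 rose, 5 fell and 1 did not pass. NEFL and GATA3 were the rises, and VIM and NEFM were among the falls. VIM, a mesenchymal marker, was the most abundant, at 87.4 FPKM (mutant) against 153 (WT). VIM and GATA3 lie on chromosome 10, whose tested genes had a median log2 fold change of -0.36 (mutant minus wild type). KRT8 and PAX2 were below the expression minimum, at 1.12 and 0.23 FPKM (mutant) against 0.50 and 0.097 (WT). The part of these marker differences in the results was not tested. The 7 markers of blood, endothelial, liver and squamous cells had group means of at most 0.29 FPKM.

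Each synthetase recognises an amino acid and the matching transfer RNAs, uses ATP to activate the amino acid, and hands the charged tRNA to the ribosome through an elongation factor. Cytosol and mitochondria are mostly served by separate genes, all of them in the nucleus, although GARS1 and KARS1 each make both forms. Several cytosolic enzymes sit with the 3 scaffold proteins in a multi-synthetase complex. When an amino acid runs short, uncharged tRNA activates the kinase GCN2, and the transcription factor ATF4 is then made and is known to act on many cytosolic synthetase genes.

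Levels are given as FPKM, fragment counts scaled by exon length and library total, which sets genes of different length on 1 scale. In the wild type the cytosolic enzymes ran from 6.51 FPKM for CARS1 to 101 for TARS1 with a median of 35. The 15 mitochondrial enzymes that could be tested ran from 2.59 for FARS2 to 87.6 for IARS2, with a median of 11.2. TARS1 and EPRS1 led the cytosolic order, at 101 ± 1.65 and 96.0 ± 0.0808 FPKM (SD, n = 3), and IARS2 stood far above TARS2 (26.7 ± 1.06), the next mitochondrial gene. Lower in the mitochondrial order, YARS2 (22.02 ± 0.815) and MARS2 (16.7 ± 0.733) were apart by more than their spread, as were CARS2 (5.56 ± 0.0473) and NARS2 (3.89 ± 0.238). LARS2 (11.2 ± 0.474) and WARS2 (11.3 ± 1.00) lay within their spread, and so did EARS2 (9.84 ± 0.502) and PARS2 (9.97 ± 0.590). The deposited exonic lengths of the members ran from 1828 bases (AIMP2) to 22418 bases (IARS1). They pool the exons of all annotated transcripts, so a long pooled length lowers an FPKM but not a fold change, and the order of genes depends on it. IARS1, for example, has 7401 exonic bases in GENCODE release 29, and it had more counts than IARS2 in every library.

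**Figure D1:**
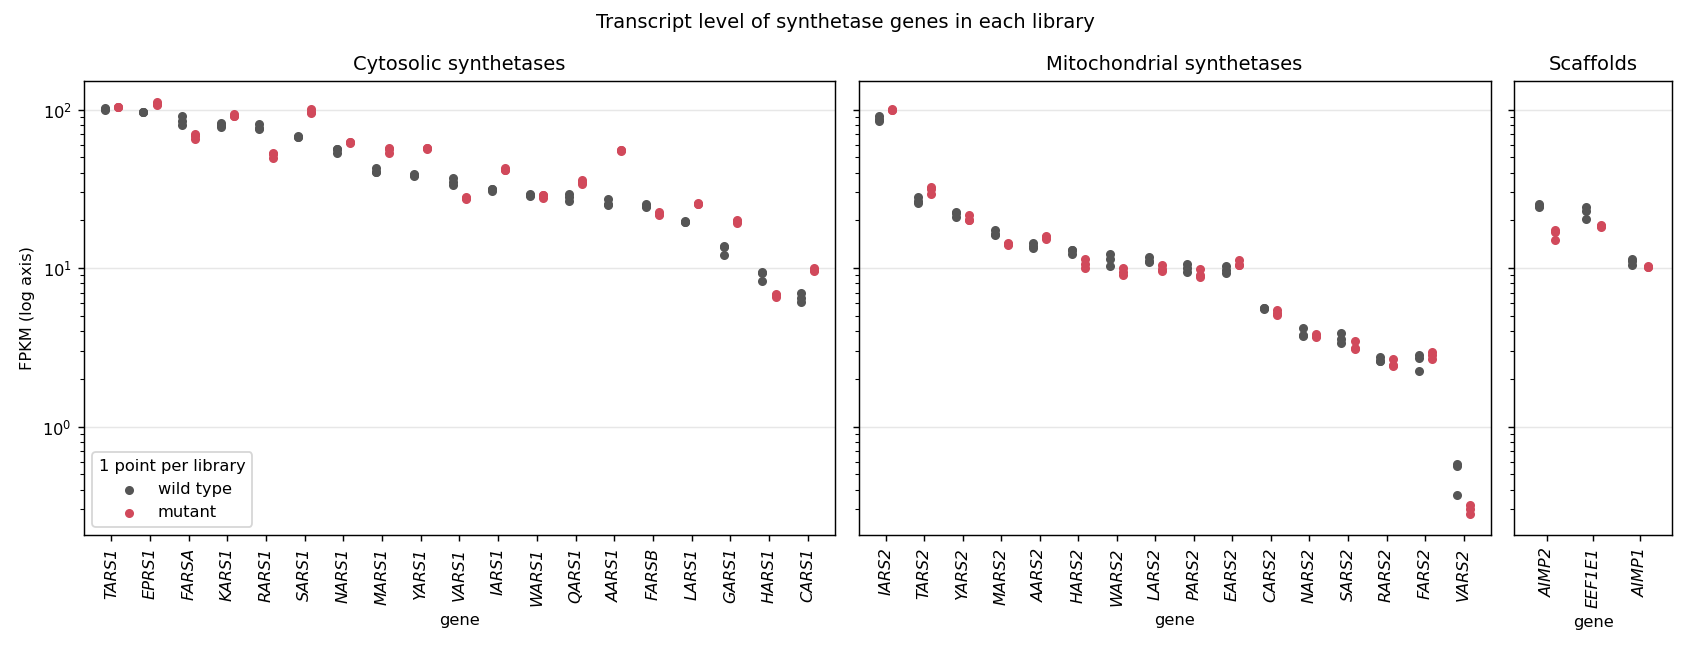
FPKM on a log axis for each of the 38 genes, 1 point per library, with wild-type libraries in grey and mutant libraries in red, ordered by wild-type level within each class. AARS1 shows the widest gap between the groups, with 25.9 FPKM for the wild type against 55.5 for the mutant, and VARS2 lies below 1 FPKM in every library.

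The cytosolic enzymes changed in both directions, with more genes higher than lower in the mutant, while the mitochondrial enzymes moved little. Of 19 cytosolic enzymes, 12 rose, 5 fell and 2 did not pass. A gene is said to rise or fall where the adjusted p of edgeR's quasi-likelihood test over all 12550 tested genes was below 0.05, and log2 fold changes are signed as mutant minus wild type and carry the standard error (SE) of the fit. Of all tested genes 58.0% were called, 29.4% higher and 28.7% lower, so calls in either direction are common in this comparison. The 3 values of each group did not overlap for 62.9% of all tested genes, so such gaps are common as well. The median log2 fold change was 0.17 for cytosolic enzymes, -0.13 for the 15 tested mitochondrial enzymes and 0.00 for all tested genes (-0.000708 before rounding). Of the mitochondrial enzymes 3 rose, 4 fell and 8 did not pass. All 3 scaffold genes fell, though the call of AIMP1 depended on the processing.

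Summed over the 19 cytosolic genes, the level was 967, 980.5 and 961 FPKM (mutant) against 864, 862 and 869 (WT). The groups did not overlap, and without AARS1 the sums were 905 to 925 against 836 to 844. The mitochondrial sums lay close together, at 244 to 254 FPKM (mutant) against 239 to 243.5 in the wild type, but these groups did not overlap either. Sums of FPKM are scaled by library totals alone, unlike the fitted fold changes. The nearest mitochondrial sums were 244.46 in mutant library 1 and 243.5 in wild-type library 1. Whether so narrow a gap holds under the scaling of the fit was not tested. The scaffold sums were 43.7 to 45.8 FPKM (mutant) against 56.2 to 59.96 in the wild type. Fewer cells with a transcript and less transcript per cell cannot be told apart in such bulk RNA.

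AARS1, the cytosolic alanine enzyme (ENSG00000090861, GRCh38 chromosome 16, 70251983 to 70289707, minus strand), had the largest rise of the 38 genes. Its level was 54.9, 55.7 and 55.9 FPKM (mutant) against 27.1, 25.5 and 25.1 (WT). Every mutant library was above every wild-type library by about the same amount. The log2 fold change was 1.07 (SE 0.04, adjusted p = 1.12e-12), a 2.10-fold rise. Genes of chromosome 16 were raised as a whole, with a median log2 fold change of 0.29 over 578 tested genes. AARS1 ranked at position 55 among these, 0.78 above the chromosome's median. The 20 tested genes nearest to it had a median of 0.24 (from -0.69 to 1.42), and 1 of them lay above AARS1. The part of the chromosome in this result was not tested.

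KARS1, the lysine enzyme of both compartments, and EARS2, the mitochondrial glutamate enzyme, also lie on chromosome 16 and showed much smaller differences. KARS1 was at 91.0, 94.1 and 90.5 FPKM (mutant) against 79.6, 78.2 and 82.0 (WT). It rose by 0.17 on the log2 scale (SE 0.04, adjusted p = 0.00110), 0.12 below the chromosome's median. EARS2 was at 11.2, 10.5 and 10.5 FPKM in the mutant against 9.36, 10.4 and 9.79, a narrow gap between groups that did not pass (log2 fold change 0.10, SE 0.06, adjusted p = 0.148). It passed with scaling by library totals (adjusted p = 0.0462), with upper quartile scaling (0.0370) and among genes with a mean of at least 5 FPKM (0.0284), in a range of up to 0.559 over the alternatives. Chromosomes 10, 20 and 22 also had shifted medians (-0.36, -0.13 and -0.16), as did the 16 tested genes of the mitochondrial genome (-0.61), and no member lies on any of these. Without the chromosome 16 genes, 10 of 17 cytosolic enzymes rose and 5 fell, with a median of 0.15.

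GARS1, CARS1, YARS1 and SARS1, the enzymes of glycine, cysteine, tyrosine and serine, formed the next step, each about 1.4 to 1.5 times higher in the mutant. GARS1 was at 19.2, 19.8 and 20.03 FPKM (mutant) against 12.1, 13.8 and 13.5 (WT) (log2 fold change 0.55, SE 0.05, adjusted p = 3.43e-08). CARS1 was at 9.52, 9.96 and 9.74 FPKM against 6.51, 6.09 and 6.93 (0.55, SE 0.05, adjusted p = 1.31e-07). In both, the lowest mutant library was well above the highest wild-type library. YARS1 was at 57.5, 57.2 and 56.3 FPKM (mutant) against 38.7, 39.1 and 38.1 in the wild type (0.53, SE 0.04, adjusted p = 2.03e-09). SARS1, among the most abundant synthetase transcripts, was at 95.8, 100.5 and 97.0 FPKM against 67.7, 67.1 and 68.4 (0.50, SE 0.04, adjusted p = 7.79e-09). The spread within a group was small for these genes beside the gap between groups.

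IARS1, MARS1 and LARS1, enzymes of the complex, rose by less. IARS1, for isoleucine, was at 42.8, 41.8 and 41.8 FPKM (mutant) against 31.4, 31.6 and 30.8 in the wild type (0.40 on the log2 scale, SE 0.04, adjusted p = 5.04e-08). MARS1, for methionine, was at 52.9, 57.3 and 56.2 FPKM against 42.8, 40.5 and 40.6 (0.39, SE 0.04, adjusted p = 4.02e-07). LARS1, for leucine, was at 25.4, 25.7 and 25.4 FPKM against 19.9, 19.5 and 19.6 (0.34, SE 0.04, adjusted p = 3.22e-07). The groups did not overlap for any of these 3 genes, as for 62.9% of all tested genes. The glutamine enzyme QARS1 (0.28), EPRS1, which joins the glutamate and proline enzymes in 1 protein (0.15), and the asparagine enzyme NARS1 (0.13) completed the 12 that rose. NARS1 was the least secure of these, with an adjusted p of 0.0114 that became 0.143 with no expression filter.

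**Figure D2:**
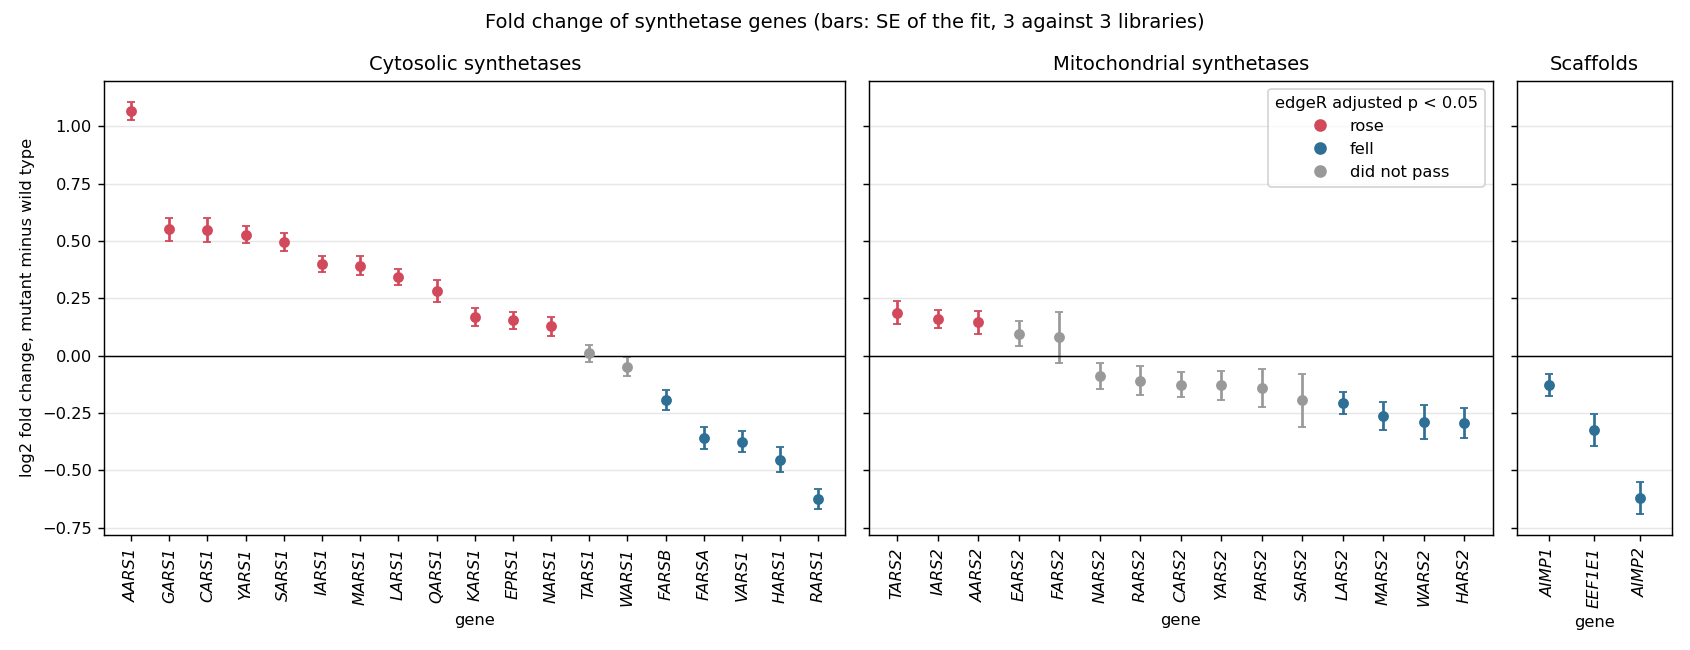
Log2 fold change (mutant minus wild type) of the 37 tested genes with the SE of the fit as bars, in red where the gene rose, blue where it fell and grey where it did not pass. The cytosolic panel runs from 1.07 for AARS1 to -0.62 for RARS1, while the mitochondrial panel stays between 0.19 and -0.29.

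Promoter sequences are shown here because ATF4, joined with a C/EBP protein, is known to bind a composite letter pattern, the C/EBP-ATF response element (CARE). Windows of 250 bases before to 50 after a RefSeq start (GRCh38.p14) were held for 33 of the 38 members (none for YARS1, LARS1, VARS1, AARS2 and VARS2). They were searched for TGATGCAA on both strands. The letters were found in 6 of 16 cytosolic genes, 0 of 14 mitochondrial genes and 0 of 3 scaffold genes, and in 0.866% of all 35116 windows in the table. The 30 bases around each match read 5′ to 3′ on the strand of the gene, with the CARE letters in capitals. In the full matches other than NARS1 the pattern lies on the opposite strand and so reads TTGCATCA. The looser pattern TGATGNAA, which overlaps the first and was found in 3.62% of windows, was held by 7 cytosolic genes and 1 mitochondrial gene. GARS1 and YARS2 are added because they hold only the looser letters.
AARS1, chr16:70289675-70289704, minus strand: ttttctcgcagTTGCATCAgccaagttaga
CARS1, chr11:3057407-3057436, minus strand: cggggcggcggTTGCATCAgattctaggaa
IARS1, chr9:92293692-92293721, minus strand: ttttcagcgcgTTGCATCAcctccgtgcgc
MARS1, chr12:57488053-57488082, plus strand: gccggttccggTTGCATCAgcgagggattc
NARS1, chr18:57621804-57621833, minus strand: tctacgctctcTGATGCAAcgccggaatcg
TARS1, chr5:33440956-33440985, plus strand: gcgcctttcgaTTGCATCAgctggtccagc
GARS1, chr7:30594834-30594863, plus strand: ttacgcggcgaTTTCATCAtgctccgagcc
YARS2, chr12:32756076-32756105, minus strand: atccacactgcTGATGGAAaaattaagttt

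The first CARE base lay at -13, -4 and -2 from the RefSeq start in IARS1, MARS1 and CARS1, and at 2 and 14 in TARS1 and NARS1, within the first exon. In AARS1 it lay at -187 from the RefSeq start but 14 bases inside the outer edge of the deposited gene, so its distance depends on which start is used. Of the 6 genes with the full letters, 5 rose and TARS1 did not pass. Of those with only the looser letters, GARS1 rose and YARS2 did not pass. YARS1 and LARS1, which rose, had no window to search. SARS1, QARS1, EPRS1 and KARS1 rose with no full or looser match in their windows. Over all 9165 tested genes with a window, 63 (0.687%) held the full letters. Of these 63, which include the 6 synthetase genes, 30 rose (47.6%), beside 31.1% of all tested genes with a window, and 25.4% fell. Of the 228 tested genes with the looser letters, which include those 63, 37.7% rose and 27.6% fell. A match of letters is a description and not a measured binding site.

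TARS1, the threonine enzyme, and WARS1, the tryptophan enzyme, did not pass. TARS1 was at 104, 104 and 104 FPKM (mutant) against 99.3, 103 and 101 (WT). FPKM, scaled by library totals, set the 3 mutant values just above the wild type, but the fitted log2 fold change was 0.01 (SE 0.04, adjusted p = 0.820). WARS1 was at 28.95, 28.98 and 27.8 FPKM in the mutant against 28.4, 29.2 and 29.1, with overlapping groups (-0.05, SE 0.04, adjusted p = 0.322).

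The 5 cytosolic genes that fell went against the larger group, led by RARS1, the arginine enzyme. RARS1 (ENSG00000113643, chromosome 5, 168486451 to 168519301, plus strand) was at 52.9, 52.2 and 49.5 FPKM (mutant) against 75.7, 76.3 and 80.9 (WT). Every mutant library was far below the wild type, and its log2 fold change was -0.62 (SE 0.04, adjusted p = 1.66e-09). The median of tested genes on chromosome 5 was 0.03. HARS1, the histidine enzyme, was at 6.74, 6.88 and 6.57 FPKM against 8.30, 9.35 and 9.40 (-0.45, SE 0.05, adjusted p = 1.07e-06). VARS1, the valine enzyme, was at 27.5, 27.4 and 27.9 FPKM against 34.8, 36.9 and 33.3 (-0.37, SE 0.05, adjusted p = 1.53e-06). Groups did not overlap for either gene, as for 62.9% of all tested genes. The phenylalanine enzyme is built from FARSA and FARSB, and both subunit genes fell. FARSA was at 67.8, 70.5 and 65.35 FPKM against 91.1, 79.8 and 84.4 (-0.36, SE 0.05, adjusted p = 5.96e-06), and FARSB fell by 0.19 on the log2 scale.

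The multi-synthetase complex holds genes that rose and genes that fell. Of its 7 enzymes among the members (EPRS1, IARS1, LARS1, MARS1, QARS1, RARS1 and KARS1), 6 rose and RARS1 fell, with a median of 0.28. The 12 cytosolic enzymes outside it had 6 rises, 4 falls and a median of 0.07, with AARS1 among them. By catalytic fold, 6 of 9 cytosolic class I enzymes rose and 2 fell, and 5 of 9 class II enzymes rose and 3 fell. EPRS1 holds both folds and is in neither count. Rises and falls were found in both structural classes. Over all tested genes 29.4% rose and 28.7% fell, so calls in both directions are common in this comparison.

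The scaffold genes were lower in the mutant. AIMP2, a scaffold at the core of the complex, was at 16.9, 17.4 and 15.1 FPKM (mutant) against 25.3, 24.4 and 24.5 (WT) (log2 fold change -0.62, SE 0.07, adjusted p = 5.73e-07). EEF1E1, also known as AIMP3, was at 18.7, 18.1 and 18.5 FPKM against 20.5, 23.1 and 24.1 (-0.33, SE 0.07, adjusted p = 5.76e-04). AIMP1, which is also secreted as a cytokine precursor, was at 10.2, 10.3 and 10.2 FPKM against 10.4, 11.03 and 11.3. All 3 genes had groups that did not overlap, as for 62.9% of all tested genes. The gap for AIMP1 was narrow (-0.13, SE 0.05, adjusted p = 0.0287), and its adjusted p reached 0.124 over the alternatives. Without mutant replicate 1, 2 or 3 or wild-type replicate 2 or 3, AIMP1 did not pass, with adjusted p of 0.0814, 0.0570, 0.0871, 0.0661 and 0.109. Nor did AIMP1 pass with scaling by library totals or upper quartile scaling. The same held with limma on either log2 FPKM scale and among genes with a mean of at least 5 FPKM. In GENCODE release 29, 28.9% of the exonic bases of AIMP2 are shared with EIF2AK1 on the other strand and 18.7% of those of EEF1E1 with a readthrough transcript. AIMP1 shares 11.6% with TBCK on the other strand. Its exonic bases number 3328 in that release against 9258 deposited, so its share is approximate. A pseudogene named for EEF1E1 reached 2.18 FPKM. Whether counting used strand, which bears on AIMP2 and AIMP1, is not stated in the labels or notes. Nor is how it treated reads shared on the same strand, which bears on EEF1E1, so all 3 values are uncertain.

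The mitochondrial enzymes differed by at most 0.29 on the log2 scale among those tested. TARS2, the threonine enzyme, was at 29.3, 32.7 and 31.4 FPKM (mutant) against 27.9, 26.3 and 25.9 (WT), a rise of 0.19 (SE 0.05, adjusted p = 0.00402). IARS2, the isoleucine enzyme, was at 99.0, 99.5 and 102 FPKM against 90.5, 87.6 and 84.6, a rise of 0.16 (SE 0.04, adjusted p = 0.00192). AARS2, the alanine enzyme, was at 15.9, 15.3 and 15.7 FPKM against 14.3, 13.7 and 13.4 (0.15, SE 0.05, adjusted p = 0.0179). The groups did not overlap for these 3, as for 62.9% of all tested genes. AARS2 no longer passed without mutant replicate 1 or 3 or without wild-type replicate 3 (adjusted p = 0.0600, 0.0504 and 0.0801). It did not pass with no expression filter either (0.179).

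HARS2, WARS2, MARS2 and LARS2, for histidine, tryptophan, methionine and leucine, fell. HARS2 was at 10.0, 11.4 and 10.6 FPKM (mutant) against 12.97, 12.2 and 13.04 (WT) (log2 fold change -0.29, SE 0.07, adjusted p = 9.52e-04). WARS2 was at 9.02, 10.0 and 9.47 FPKM against 10.3, 11.5 and 12.3 (-0.29, SE 0.07, adjusted p = 0.00290). MARS2 was at 14.0, 14.4 and 14.2 FPKM against 16.1, 16.4 and 17.5 (-0.26, SE 0.06, adjusted p = 0.00110). The gap was clear for MARS2 and narrow for WARS2. LARS2 was at 9.61, 10.4 and 9.85 FPKM against 10.85, 11.8 and 11.1, again with groups apart (-0.21, SE 0.05, adjusted p = 0.00154).

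A further 8 mitochondrial enzymes did not pass. CARS2, for cysteine, was at 5.17, 5.09 and 5.40 FPKM in the mutant against 5.60, 5.58 and 5.51, and YARS2, for tyrosine, at 20.05, 21.8 and 20.01 against 22.6, 21.1 and 22.3. Their log2 fold changes were -0.13 (SE 0.06, adjusted p = 0.0596) and -0.13 (SE 0.06, adjusted p = 0.0847). SARS2, for serine, was at 3.08, 3.45 and 3.12 FPKM against 3.56, 3.35 and 3.87 (-0.19, SE 0.11, adjusted p = 0.154). RARS2, for arginine, was at 2.42, 2.67 and 2.44 FPKM against 2.61, 2.73 and 2.60 (-0.11, SE 0.06, adjusted p = 0.149). Of these 4 genes only CARS2 had groups that did not overlap. FARS2, for phenylalanine, was at 2.81, 2.65 and 2.94 FPKM against 2.72, 2.24 and 2.81 with overlapping groups (0.08, SE 0.11, adjusted p = 0.553). The other log2 fold changes were -0.09 for NARS2, -0.14 for PARS2 and 0.10 for EARS2, whose narrow gap between groups is given above. Their intervals allow small changes, so a p that missed the threshold does not show that levels were equal.

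VARS2, the mitochondrial valine enzyme, was the only member below the minimum mean of 1 FPKM and was not tested with the others. Its level was 0.28, 0.30 and 0.32 FPKM (37, 33 and 33 counts) with the edit, against 0.37, 0.56 and 0.58 FPKM (43, 61 and 67 counts) in the wild type. The mutant values were all lower. With no expression filter its log2 fold change was -0.82 (SE 0.23, adjusted p = 0.00186). In GENCODE release 29, 22% of its exonic bases are shared with GTF2H4, and 57.0% of those of SARS2 with other genes, so the low levels of both are uncertain.

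For 14 amino acids a cytosolic and a mitochondrial gene could be set against each other inside each library, a ratio that does not depend on scaling between libraries. The ratio was higher in every mutant library than in any wild-type library for 9 pairs and lower for 3 (RARS1/RARS2, FARSA/FARS2 and TARS1/TARS2), and the groups overlapped for HARS1/HARS2 and VARS1/VARS2. Over all tested genes, the 3 values of each group did not overlap for 62.9% of single genes, and no such share was computed for ratios. The log2 ratio of AARS1 to AARS2 was 1.79, 1.86 and 1.83 with the edit, against 0.92, 0.89 and 0.90 in the wild type, a difference of 0.92. The next differences were 0.69 for SARS1/SARS2, 0.68 for CARS1/CARS2, 0.66 for YARS1/YARS2 and MARS1/MARS2 alike, and 0.55 for LARS1/LARS2. The lowest were -0.51 for RARS1/RARS2 and -0.44 for FARSA/FARS2. A two-sided exact permutation test gave p = 0.10 for the 12 pairs that did not overlap, the smallest that 3 against 3 libraries can give, and 0.117 after adjustment over the 14 pairs. The design cannot reach 0.05 with this test.

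**Figure D3:**
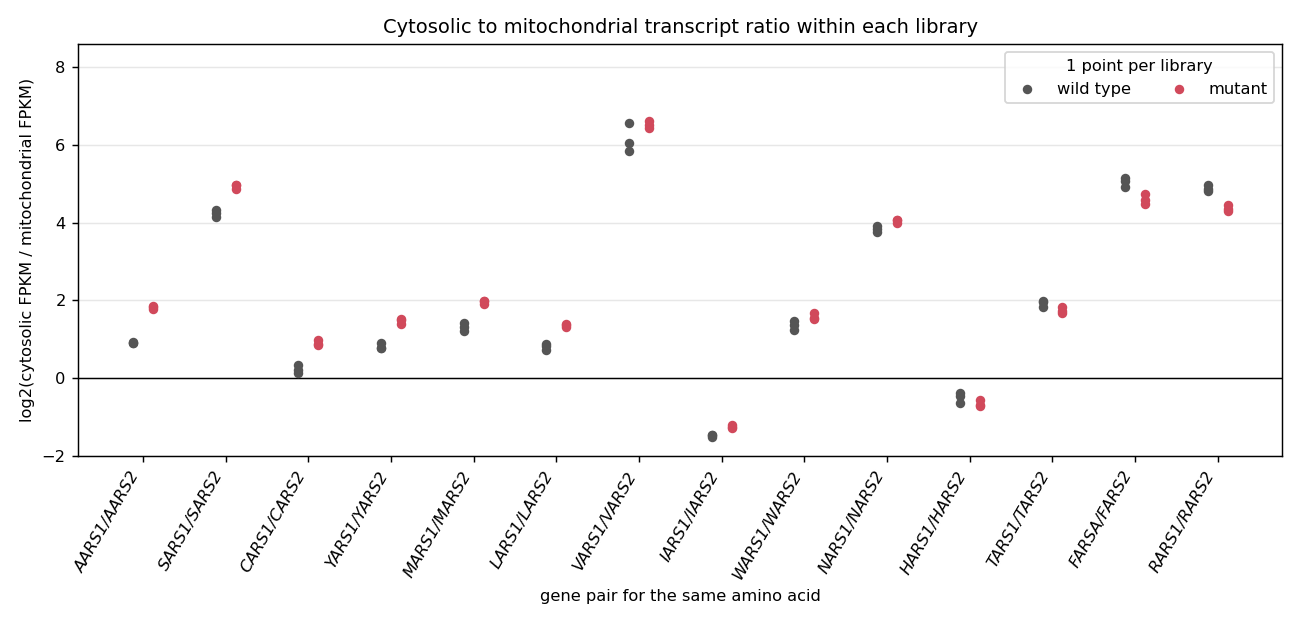
Log2 ratio of cytosolic to mitochondrial FPKM for 14 amino acids, 1 point per library, with wild type in grey and mutant in red, ordered by the difference between groups. The pairs at the left are higher in the mutant, by 0.92 for alanine, and those at the right lower, by 0.51 for arginine, while isoleucine and histidine lie below 0 on this scale, which uses the pooled lengths of 22418 bases for IARS1 and 14155 for HARS1.

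HARS1 and HARS2 are neighbours on chromosome 5 that are transcribed away from each other, and both fell. Their RefSeq starts have 84 bases between them, and their deposited spans overlap by 108 bases at the shared end. HARS1 changed by -0.45 and HARS2 by -0.29. Because the groups of the HARS1/HARS2 ratio overlapped (difference -0.16, exact permutation p = 0.20), unequal change of the pair was not shown. Reads in the shared bases could have been counted for either gene or for neither, and that setting is not stated in the labels or notes. HARS1 shared 8.38% of its exonic bases with other genes in GENCODE release 29 and HARS2 15.8%. HARS1 has 7853 exonic bases in that release against 14155 deposited, so its share is approximate. Among other members, MARS1 shared 13.3% and WARS1 10.6%.

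Related genes of tRNA charging were mixed. Of the mitochondrial charging partners, which make glutaminyl-tRNA by amidation (GATB, GATC and QRSL1) or formylate the initiator methionyl-tRNA (MTFMT), 1 of 4 rose and 2 fell. MTFMT rose by 0.48 (SE 0.10) and QRSL1 fell by 0.42 (SE 0.06) on the log2 scale. Of 8 other charging and proofreading enzymes, 4 rose and 3 fell. Over all tested genes the shares were 29.4% and 28.7%. The 2 with the smallest adjusted p were DTD1, a D-aminoacyl-tRNA deacylase on chromosome 20 (0.44, SE 0.07), and SEPSECS, the last enzyme of selenocysteine synthesis (0.53, SE 0.09).

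Genes that act before charging were more often lower than higher. Of 14 genes of tRNA maturation and export, 2 rose and 8 fell (median -0.20), beside 29.4% and 28.7% of all tested genes. RPP30, a ribonuclease P subunit on chromosome 10, fell by 0.86 (SE 0.05), and TSEN15, a tRNA splicing endonuclease subunit, rose by 0.69 (SE 0.05). Of 13 genes of RNA polymerase III, which transcribes tRNA, and its factors, 2 rose and 8 fell (median -0.24). POLR3A, the gene of the largest subunit, on chromosome 10, changed by -0.52 (SE 0.04), and both rises, POLR3E and POLR3K, lie on chromosome 16. The part of those chromosomes in these counts was not tested. tRNA itself was not measured, since the libraries were made from poly(A) RNA.

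Of 8 tested elongation factor genes, 3 rose and 3 fell (median 0.04), beside 29.4% and 28.7% of all tested genes. TUFM, which brings charged tRNA to the mitochondrial ribosome and lies on chromosome 16, rose by 0.35 (SE 0.04), and EEF1D, an exchange factor of the cytosolic carrier, changed by -0.41 (SE 0.05). Of 14 tested genes of uncharged tRNA sensing and the amino acid response, 8 rose and 3 fell (median 0.40). The same shares of all tested genes, 29.4% and 28.7%, apply here. ATF3, a stress transcription factor, rose by 1.60 (SE 0.07) and ATF4 by 0.73 (SE 0.04, adjusted p = 2.22e-10), from 221 to 375 FPKM. ATF4 and ATF3 were known to be higher from earlier results of these data, and EIF2AK4, the gene of GCN2, changed by 0.15 (SE 0.05, adjusted p = 0.0154).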

How the data were processed

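Poly(A) RNA of 6 HEK293 libraries, 3 per genotype, was sequenced. The deposited table holds raw counts and FPKM per gene and library, with exonic gene lengths as another column. The submitters' processing notes name cutadapt, HISAT2 version 2.0.1, HTSeq and GRCh38, with no annotation release or strand setting stated. Recomputing FPKM from deposited counts and lengths matched within 0.011 for 100% of values.

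Genes with a mean of at least 1 FPKM were tested on counts (12550 genes) with TMM scaling (factors 0.980 to 1.017) and the two-sided quasi-likelihood F-test of edgeR 4.0.16, genotype as the single factor, with Benjamini-Hochberg adjustment over all tested genes and a threshold of 0.05. The SE is the absolute log2 fold change divided by the square root of F. On counts simulated from the means and library sizes of these data (12550 genes), 60% of genes changed by 0.3 and 88% of those changed by 0.6 (log2) were recovered. Only 50 genes were changed at each size, while 58.0% of genes were called in the data. The adjusted threshold is therefore stricter in the simulation, and these shares do not give the power of this comparison. Pair ratios were tested by exact permutation. Motifs were searched in RefSeq windows, and exon overlap was taken from GENCODE release 29. No pair of libraries was a duplicate (chi-square per degree of freedom at least 2.50).

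All members are accounted for. Full values were given to the largest called rises (5) and falls (3) of each enzyme class, the scaffold genes, members on chromosomes 10, 16, 20 and 22, and partners of named pairs. Up to 2 genes per related list were named by smallest adjusted p; ATF4, EIF2AK4, POLR3E and POLR3K were added after their values were seen. A related gene that this rule names is not reported here. Members and lists were chosen with earlier results of these data known. Alternatives were other scalings, filters, DESeq2 1.42.0, limma 3.58.1 on log2(FPKM + 1) or log2(FPKM + 0.1), a block for replicate number, and fits with 1 library left out.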

Additional observations from a re-analysis of the deposited data

How the results depend on the processing

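Over the 16 alternatives to the test, the cytosolic counts stayed at 12 higher and 5 lower, except for 11 higher with no expression filter. The mitochondrial counts ran from 2 to 4 higher and 4 to 6 lower, and 2 or 3 scaffold genes were lower. Calls over all genes fell from 3686 higher and 3598 lower to 2300 and 2297 among genes with a mean of at least 5 FPKM, where fewer genes were tested. They were 4126 higher and 3128 lower with scaling by library totals, and 4177 and 3083 with upper quartile scaling. The balance of the background shares, 29.4% higher and 28.7% lower, therefore depends on the scaling. The direction changed for TARS1 with no expression filter (-0.027) and without wild-type replicate 1 (-0.0067, up to 0.022 with another library left out), for FARS2 without wild-type replicate 2 (-0.012, up to 0.14 with another left out), and for the VARS1/VARS2 ratio with a pseudocount of 1 (-0.12); none of these 3 was called. The cause was not tested. With no expression filter CARS2 passed (-0.16, adjusted p = 0.0442). Replicate numbers did not pair the libraries: deviations of same-numbered libraries correlated at -0.04 to 0.00 (0.00385 at most), and not every library correlated best with its own number. With a replicate block, 3584 genes were called higher and 3485 lower, and no member's call changed. Depth limits VARS2 most, at 33 to 67 counts per library.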

Other observations

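The palindrome CACGTG, an E-box known to be bound by MYC with MAX, was searched in the same promoter windows. It was found in 7.26% of all windows and in those of 5 members: IARS1, MARS2, CARS2, EARS2 and AIMP2. The log2 fold changes of these genes were 0.40, -0.26, -0.13, 0.10 and -0.62, of which IARS1 rose, MARS2 and AIMP2 fell and the others did not pass. Counted by gene, it was held by 5 of the 33 members with a window and by 13.05% of tested genes with a window (1196 genes), so the members lie near the background. Of these 1196 genes, 27.2% rose and 35.9% fell. IARS1 is the only member with a window that holds both CACGTG and the CARE letters.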
